A study of Mus musculus with 6 samples.

Results

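The cathepsins are proteases of the lysosome, and 10 of their genes were described in purified oligodendrocyte lineage cells of mice that lack the cholesterol transporter NPC1. The members were Ctsa, Ctsb, Ctsc, Ctsd, Ctsf, Ctsh, Ctsl, Ctso, Ctss and Ctsz, found by symbol among the 55492 genes of the expression table, and all 10 were above 0 in every sample. RNA had been taken from cells of whole brain that bind microbeads against O4, a surface antigen of oligodendrocyte lineage cells, at postnatal day 16 (P16), without treatment. There were 3 WT and 3 Npc1-/- samples, each from 1 mouse, and the question was which transcripts differ in the absence of NPC1. The Npc1-/- mice carried the nih allele in every cell of the body (no Cre was used), so that other cell types of the brain lacked NPC1 as well. They came from a cross between BALB/cJ and C57BL6/J heterozygotes. The study genotyped littermates for its experiments, but which of these samples share a litter is not given.

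NPC1 is a membrane protein that moves cholesterol out of late endosomes and lysosomes, the compartments in which cathepsins work. Cathepsins are made as inactive precursors, tagged with mannose 6-phosphate in the Golgi, carried to the lysosome and activated there at acid pH. By catalytic residue, Ctsd is an aspartic protease, Ctsa is a serine carboxypeptidase, and the other members are cysteine proteases related to papain. Many lysosomal genes carry an E-box of the CLEAR type near their start, which is recognised by TFEB and related factors. In brain, Ctss is known mainly from microglia, the resident macrophages.

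Promoter windows of 4 members are shown because they hold the motifs by which the members differ, the CLEAR core TCACGTGA of the TFEB family and GAGGAAGT, a form bound by the myeloid factor PU.1. The sequences are from RefSeq start sites on GRCm38.p6, and the capitals mark the motif.
Ctsa, chr2:164833741-164833792, plus strand: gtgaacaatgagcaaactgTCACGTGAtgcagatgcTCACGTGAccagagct
Ctsd, chr7:142387903-142387942, minus strand: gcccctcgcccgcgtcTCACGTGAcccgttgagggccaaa
Ctss, chr3:95526764-95526803, plus strand: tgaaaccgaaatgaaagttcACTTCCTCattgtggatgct
Ctsc, chr7:88277918-88277957, plus strand: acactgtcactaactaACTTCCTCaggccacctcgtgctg
The Ctsa window surrounds the second of 2 start sites and lies inside the gene. The Ctsd window lies upstream of its RefSeq start but inside the longer gene interval of the annotation given below, the Ctsc window lies upstream of the start, the Ctss window spans it, and in the Ctss and Ctsc windows GAGGAAGT reads on the opposite strand.

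Of the 10 members, 8 had a RefSeq promoter (250 bases before to 50 after the start), and Ctsb and Ctsh had none in the table. These 8 members had 9 promoters, because Ctsa had 2, of which only the second held matches. Members are counted by gene below, whereas the shares of all promoters are by promoter. Both strands were searched. TCACGTGA was found in 2 members, Ctsa and Ctsd, against 0.974% of all 32851 promoters. GTCACGTG, which takes in the base before that core and leaves out its last A, was found in the same 2 members. It was found in 2.25% of all promoters. The plain E-box CACGTG, which both of these contain, was found in 4 members (Ctsa, Ctsd, Ctsf and Ctsl) and in 7.15% of all promoters. GAGGAAGT was found in 2 members, Ctsc and Ctss, and in 3.20% of all promoters. These matches describe the windows and do not show binding.

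Levels are given as TPM, the share of a gene's transcripts in the library after correction for length, divided by a size factor per sample, and are called scaled TPM. Size factors lay between 0.727 and 1.3, and depth estimated from the values lay between 40000000 and 50000000 fragments per sample, so that the member values rested on 241 to 9511 fragments per 1000 bases of transcript. Npc1 itself had 41.1, 45.5 and 43.9 scaled TPM in WT and 3.72, 5.17 and 4.35 in Npc1-/- samples, and fell with an adjusted p of 0.000398 (limma). Oligodendrocyte genes dominated every sample, with Mbp, a myelin protein, at 18.8% to 26.1% of all TPM. Npc1-/- replicate 3 stood apart by sex-linked genes, with 15.57 TPM of Xist against at most 0.01 in the others and Ddx3y, Eif2s3y, Kdm5d and Uty listed at 0. The labels do not give the sex.

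Of 15245 genes tested by limma with Benjamini-Hochberg adjustment, 124 (0.813%) were called, which required an adjusted p below 0.05 together with a log2 fold change of 0.1 or more in size. Of these, 61 (0.400%) were higher and 63 (0.413%) were lower in Npc1-/- samples. With TPM as deposited, without size factors, there were 54 higher and 870 lower calls, and the median over all genes moved from 0.0081 to -0.326 on the log2 scale.

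None of the 10 cathepsins was called. At an unadjusted p below 0.05 there were 3 members (Ctsa, Ctsc and Ctsh), against 22.2% of all genes tested. The 2 genotypes did not overlap in those 3 members, against 27.5% of all genes. Ctsa was higher in every Npc1-/- sample (13.3% of all genes were), and Ctsc and Ctsh were lower in every one (14.2% of all genes were). The log2 fold change was below 0 in 8 members and above 0 in 2, with a median of -0.0898, against 0.0081 over all genes tested. Ctsh, Ctss and Ctsc had the lowest values in the family, Ctsa had the highest, and the other 6 lay between -0.21 and 0.016.

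**Figure D1:**
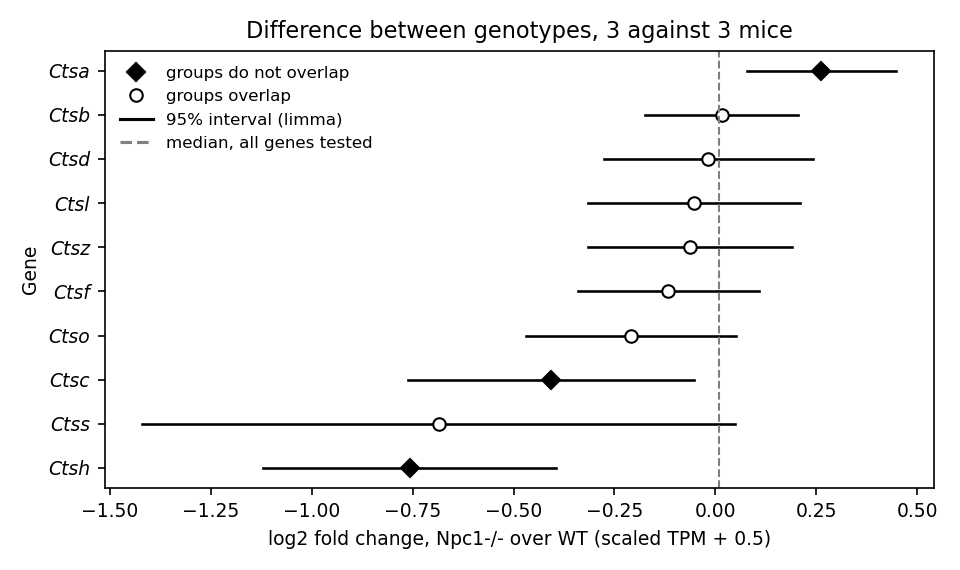
Log2 fold change of each cathepsin, Npc1-/- over WT, on log2(scaled TPM + 0.5), with its 95% interval from limma over 3 and 3 mice; filled diamonds are members whose genotypes do not overlap, and the dashed line is the median of all 15245 genes tested. Ctsh (-0.76) and Ctsc (-0.41) lie to the left and Ctsa (0.26) to the right with intervals that exclude 0, no member passed the adjusted threshold, and without size factors the Ctsa value was -0.108.

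The summed level of the family overlapped between the 2 genotypes. It was 866, 736 and 754 scaled TPM in WT and 739, 730 and 766 in Npc1-/- samples, or 785 ± 70.7 against 745 ± 18.6 (SD, n = 3 each). Ctsl, Ctsd and Ctsb made up most of it. Their shares of the sum in WT were 27.4% ± 1.55, 24.9% ± 1.19 and 15.8% ± 0.870 (SD, n = 3).

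TPM is scaled by length, so the levels can be ranked between genes. In WT, Ctsl (216 scaled TPM) and Ctsd (196) came first with overlapping ranges, although Ctsl was above Ctsd in each sample. This order rests on the split of reads between Ctsd and Gm49369, a gene model that shares exons with it on the same strand. Summed, Ctsd and Gm49369 had 318, 258 and 257 scaled TPM in WT and 275, 259 and 278 in Npc1-/- samples. That sum was above Ctsl in every sample. Ctsb (124) and Ctsa (67.0) followed, each clear of its neighbours. Ctsh (51.5), Ctsz (40.8) and Ctss (40.3) overlapped one with the next, then came Ctsf (27.1), and Ctsc (12.6) and Ctso (11.3) overlapped at the foot of the order. In Npc1-/- samples the first 4 kept their order. Ctsh ranked behind Ctsz, at 30.5 against 38.8 scaled TPM without overlap, where in WT it had ranked above it with overlapping ranges. Ctss (26.6) then overlapped with both Ctsh and Ctsf (24.9), and Ctso (9.68) and Ctsc (9.25) overlapped with the reverse order of means.

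**Figure D2:**
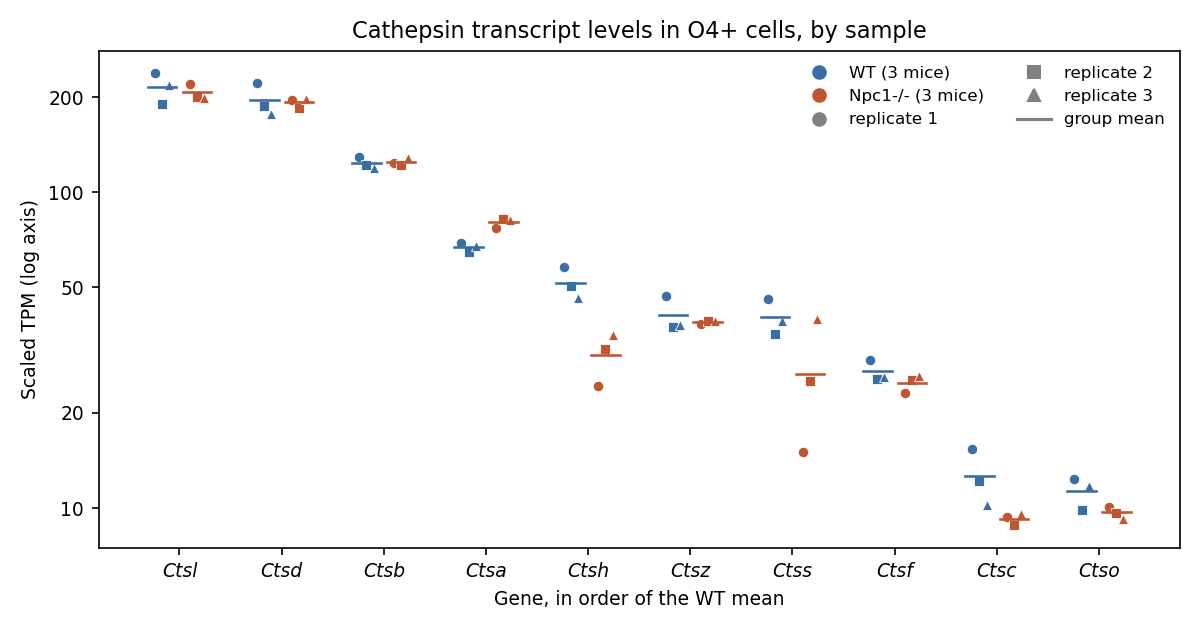
Scaled TPM of the 10 cathepsins in each sample on a log axis, WT in blue and Npc1-/- in orange, with a marker per replicate and a line at the mean of 3 mice. From Ctsl (216 scaled TPM in WT) to Ctso (11.3), the genotypes lie on each other for Ctsb, Ctsd and Ctsl, apart for Ctsa, Ctsc and Ctsh, and the Npc1-/- samples of Ctss spread from 15.1 to 39.6.

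Ctsd, the aspartic endopeptidase that opens many lysosomal proteins (chr7:142375911-142388038, minus strand), did not differ detectably. It had 222, 188 and 177 scaled TPM in WT and 196, 185 and 197 in Npc1-/- samples. All 3 Npc1-/- values lay within the WT range. The log2 fold change was -0.017 (95% interval -0.275 to 0.241, adjusted p = 0.947, limma), which limits a change to between 0.826-fold and 1.18-fold. Ctsd shares 808 exonic bases with Gm49369, a gene model on the same strand with 82.6 TPM on average, so the split of reads between them is uncertain. The sum of both, computed after the values were seen, gave a log2 fold change of -0.0294 (95% interval -0.298 to 0.239).

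Ctsa, a carboxypeptidase that also shields neuraminidase and beta-galactosidase from degradation (chr2:164832873-164841032, plus strand), was the only member with all Npc1-/- samples above all WT samples. It had 69.0, 64.5 and 67.6 scaled TPM in WT and 77.3, 82.5 and 81.8 in Npc1-/- samples. The 2 ranges were separated by a gap wider than either of them. The means were 67.0 ± 2.32 and 80.6 ± 2.85 (SD, n = 3 each), a log2 fold change of 0.26 (SE 0.078, 95% interval 0.079 to 0.448), or 1.20-fold. The adjusted p was 0.111 by limma, and the exact permutation test gave 0.1, the smallest p that 3 against 3 samples allow. As deposited, without size factors, Ctsa had a log2 fold change of -0.108, which was 0.218 above the median of all genes. Ctsa shares 495 exonic bases with Pltp on the opposite strand (144 TPM on average, with a log2 fold change of -0.50), and it was not stated whether reads were counted by strand.

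Of its partners, Neu1, the neuraminidase that Ctsa activates, had 11.2, 9.98 and 9.07 scaled TPM in WT and 13.5, 12.6 and 12.8 in Npc1-/- samples. These groups did not overlap either, with a log2 fold change of 0.35 (adjusted p = 0.111, limma). Glb1, the beta-galactosidase of the same complex, overlapped between genotypes with a log2 fold change of -0.22.

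Among the cysteine endopeptidases, Ctsl, Ctsb and Ctsf had overlapping genotypes. Ctsl, a broad endopeptidase with the highest mean of the members as listed (chr13:64359337-64370890, minus strand), had 238, 190 and 218 scaled TPM in WT. It had 221, 201 and 199 in Npc1-/- samples. Ctsb, which acts as endopeptidase and as dipeptidyl carboxypeptidase (chr14:63122462-63145923, plus strand), had 129, 122 and 119 in WT and 124, 122 and 128 in Npc1-/- samples. Every Npc1-/- value of both genes lay within the WT range. The log2 fold change was -0.054 for Ctsl (95% interval -0.316 to 0.209, adjusted p = 0.829) and 0.016 for Ctsb (95% interval -0.173 to 0.205, adjusted p = 0.936), both by limma. Ctsf, cathepsin F (chr19:4855130-4860918, plus strand), had 29.5, 25.7 and 26.0 in WT and 23.1, 25.5 and 26.1 in Npc1-/- samples, with a log2 fold change of -0.12 (95% interval -0.341 to 0.108). Ctsb shares 774 exonic bases with Fdft1 on the opposite strand, and Ctsl overlaps an antisense gene and a pseudogene that were both below 0.5 TPM.

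Ctss, an endopeptidase that stays active at neutral pH and cuts the invariant chain of MHC class II (chr3:95526786-95556403, plus strand), had the widest spread of the family on the log2 scale among the Npc1-/- samples. It had 45.8, 35.7 and 39.2 scaled TPM in WT and 15.1, 25.2 and 39.6 in Npc1-/- samples. Replicates 1 and 2 of Npc1-/- lay below every WT sample, and replicate 3 lay within the WT range. The means were 40.3 ± 5.15 and 26.6 ± 12.3 (SD, n = 3 each). The log2 fold change was -0.68 (SE 0.312, 95% interval -1.42 to 0.049, adjusted p = 0.253, limma). It was -0.336 without Npc1-/- replicate 1 and -1.02 without Npc1-/- replicate 3. With TPM as deposited Ctss was called, at -1.05 and an adjusted p of 0.0305 (limma), 0.727 below the median of all genes. Cd74, the invariant chain, overlapped between genotypes with a log2 fold change of -0.28.

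Of the cysteine exopeptidases, Ctsh came nearest to the threshold. Ctsh is an aminopeptidase (chr9:90054152-90076089, plus strand). It had 57.8, 50.6 and 46.1 scaled TPM in WT and 24.3, 31.9 and 35.2 in Npc1-/- samples. The highest Npc1-/- sample lay below the lowest WT sample. The means were 51.5 ± 5.89 and 30.5 ± 5.58 (SD, n = 3 each), a log2 fold change of -0.76 (SE 0.154, 95% interval -1.12 to -0.394), or 0.592-fold. The adjusted p was 0.0589 by limma, and the exact permutation p was 0.1. Ctsh was called without Npc1-/- replicate 3 (adjusted p = 0.0458, limma), when the fit kept the 9150 genes at or above a mean TPM of 5 (0.0451) and with TPM as deposited (0.0154), in each case lower in Npc1-/- samples.

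Ctsc, a dipeptidyl peptidase that activates the granule proteases of immune cells (chr7:88278085-88310888, plus strand), had 15.4, 12.2 and 10.2 scaled TPM in WT and 9.40, 8.82 and 9.54 in Npc1-/- samples. The groups were separate, by a gap smaller than the WT range. The log2 fold change was -0.41 (SE 0.151, 95% interval -0.761 to -0.0532, adjusted p = 0.172, limma), and -0.256 without WT replicate 1. Ctsz, a carboxypeptidase (chr2:174427493-174439039, minus strand), had 47.1, 37.3 and 38.1 in WT and 38.4, 39.0 and 39.1 in Npc1-/- samples, all within the WT range. Ctso, cathepsin O (chr3:81932601-81956725, plus strand), had 12.4, 9.85 and 11.7 in WT and 10.1, 9.65 and 9.26 in Npc1-/- samples. Only replicate 1 of Npc1-/- lay within the WT range of Ctso. The log2 fold changes were -0.064 for Ctsz (95% interval -0.316 to 0.189) and -0.21 for Ctso (95% interval -0.468 to 0.0525).

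Markers of other brain cells differed between the genotypes, and their values belong beside Ctsh, Ctss and Ctsc. In bulk RNA, fewer cells of a type and less RNA per cell cannot be told apart. All 16 microglia markers were above 0 in every sample, and their summed level was 403, 254 and 301 scaled TPM in WT and 124, 176 and 229 in Npc1-/- samples. The groups did not overlap. C1qa, Csf1r and C1qc, the most abundant microglia markers, had log2 fold changes of -0.78, -1.30 and -0.78, and 15 of the 16 values were below 0, with a median of -0.83. Of the 16 markers, 9 were lower without overlap, against 14.2% of all genes tested. Tmem119 fell (log2 fold change -1.44, adjusted p = 0.0442, limma) and was the only marker of that list that was called. Sall1, at 0.23, was the exception in direction, and Aif1 and Tyrobp had -0.0070 and -0.0046. These 4 and the genes named by their calls in the next paragraph were chosen after their values were seen.

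The 7 perivascular macrophage markers summed to between 19.9 and 33.0 scaled TPM in WT and between 5.43 and 7.21 in Npc1-/- samples. Of these 7, 4 were called lower (Mrc1, Cd163, F13a1 and Cbr2), against 0.413% of all genes tested. Their log2 fold changes were -1.90, -2.29, -1.56 and -1.48, Pf4 had -1.28, and all 7 were lower without overlap. Cd163 was between 0.0726 and 0.234 scaled TPM in Npc1-/- samples. The 7 vascular markers summed to between 815 and 1000 in WT and between 436 and 703 in Npc1-/- samples, with Cldn5, Ly6c1 and Vtn at -0.54, -0.63 and -0.90 and no call. Of these 7, 5 were lower without overlap. Of the 7 astrocyte markers, 6 had a log2 fold change below 0, with a median of -0.421. None was called, and 5 were lower without overlap, against 14.2% of all genes tested. Aldoc, Gfap and Slc1a2, the most abundant, had -0.21, 1.01 and -0.80, and Gfap was higher without overlap. Their sum, of which Aldoc and Gfap made up the most, overlapped at 667 to 724 against 450 to 862. For the cells that O4 selects, the 10 oligodendrocyte markers summed to between 177000 and 250000 scaled TPM in WT and between 224000 and 441000 in Npc1-/- samples, with Mbp and Mobp at 0.57 and 0.63, and the 8 progenitor markers to between 1280 and 1540 and between 1130 and 1530, with Olig1, Gpr17 and Sox10 at 0.036, -0.22 and 0.024. No marker of these 2 lists was called. Mbp made up most of the oligodendrocyte sum. Of the 10 oligodendrocyte markers, 8 had a log2 fold change above 0, with a median of 0.345. In 3 of them every Npc1-/- sample was above every WT sample, against 13.3% of all genes tested. The 8 neuronal markers summed to 103 to 142 and 159 to 196, with Tubb3, Snap25 and Stmn2 at 0.44, 0.30 and 0.53, and Nefl, a neurofilament gene, rose by 1.22 on the log2 scale (adjusted p = 0.0185, limma).

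Ctss followed the microglia sum in part. Npc1-/- replicate 1 had the lowest Ctss and the lowest microglia sum of the 6 samples. Npc1-/- replicate 2 was the next lowest in both. Npc1-/- replicate 3 was the third lowest in the microglia sum, while its Ctss lay above that of 2 WT samples. The part of these other cells in the differences of Ctsh, Ctss and Ctsc was not tested.

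**Figure D3:**
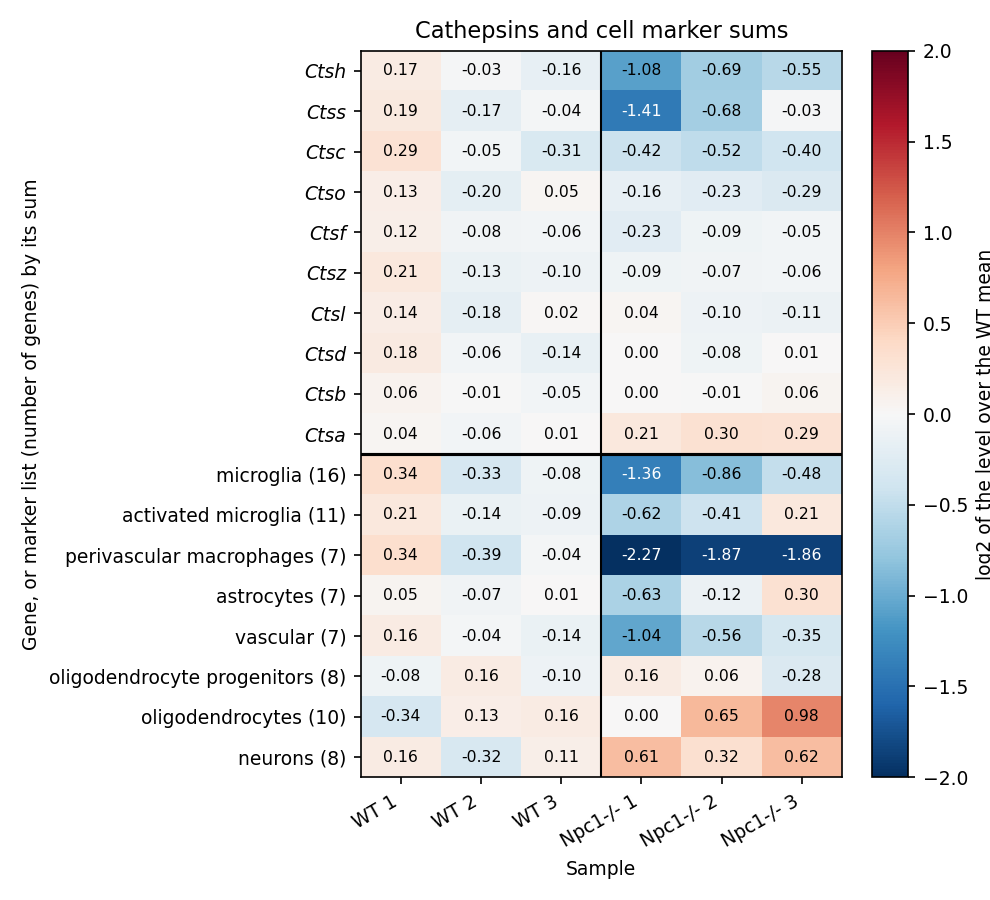
Log2 of each level over the mean of the 3 WT samples, for the 10 cathepsins (above the line) and for the summed markers of 8 cell lists (below it, with the number of genes), by sample. Ctsh (-1.08 to -0.548) and Ctss (-1.41 to -0.0251) in Npc1-/- samples lie beside microglia (-1.36 to -0.477) and vascular sums (-1.04 to -0.351), while Ctsb, Ctsd, Ctsl and Ctsz lie between -0.112 and 0.0563 in Npc1-/- samples.

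The ratio of each member to the summed microglia markers, taken within a sample, does not depend on the size factors. For 3 of the 10 members this ratio overlapped between genotypes. It also did for 43.8% of the tested genes outside the marker list, so the overlap is not particular to these 3. Ctss had ratios of 0.114, 0.141 and 0.130 in WT and 0.122, 0.143 and 0.173 in Npc1-/- samples, a difference of 0.18 on the log2 scale (exact permutation p = 0.4). Ctsh had 0.143, 0.200 and 0.153 in WT and 0.196, 0.181 and 0.154 in Npc1-/- samples, a difference of 0.11 (exact permutation p = 0.7). Ctsc differed by 0.45 (exact permutation p = 0.2). In the other 7 members every Npc1-/- ratio was above every WT ratio, which also held for 56.0% of the 15229 tested genes outside the marker list (0.236% were below in every sample), with differences from 0.656 (Ctso) to 1.14 (Ctsa) and an exact permutation p of 0.1 for each, the smallest these samples allow. The microglia sum in the denominator was lower in every Npc1-/- sample, and the median difference over the 15034 of these genes above 0 in all samples was 0.882, so the separation of the 7 members is not particular to them. All tests were two-sided, and 10 ratios were compared.

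**Figure D4:**
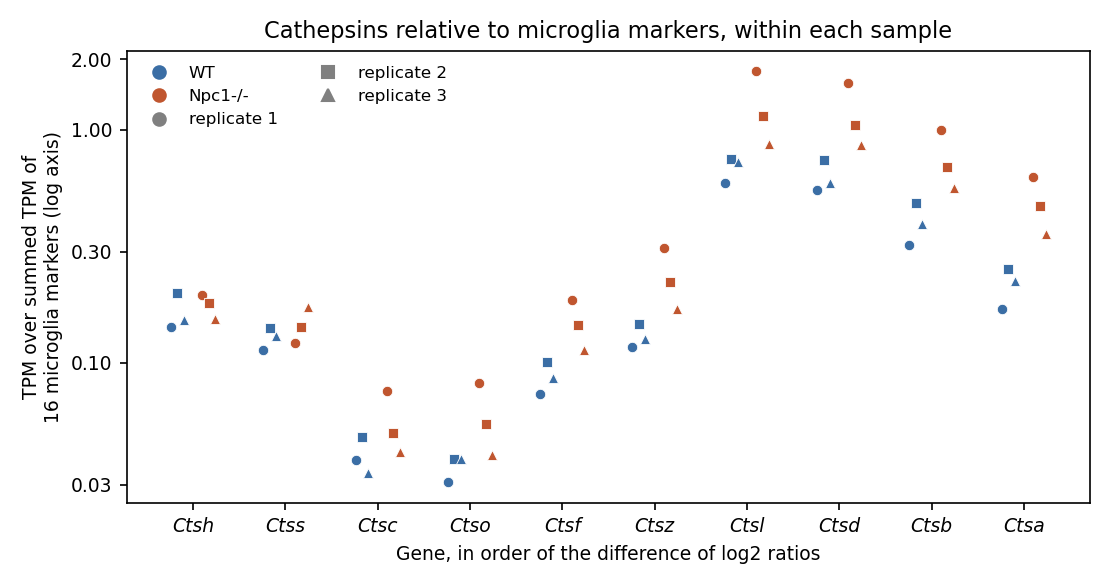
TPM of each cathepsin over the summed TPM of 16 microglia markers in the same sample, on a log axis, WT in blue and Npc1-/- in orange, with a marker per replicate. The genotypes overlap for Ctsh (0.143 to 0.200), Ctss (0.114 to 0.173) and Ctsc (0.0339 to 0.0759) and are separate for the other 7, as they are in the same direction for 56.0% of 15229 genes, with Ctsl reaching 1.78 in Npc1-/- replicate 1.

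Of 13 further mouse cathepsins, 8 were listed at 0 in every sample, 2 passed the filter on low values (Ctsk and Ctsw) and none was called. Ctsk had an unadjusted p below 0.05 (limma), as had 22.2% of all genes tested. Ctsk, the collagen-cutting cathepsin of osteoclasts, had 8.64, 10.6 and 11.0 scaled TPM in WT and 11.0, 13.4 and 15.2 in Npc1-/- samples, with a log2 fold change of 0.37 (adjusted p = 0.203, limma). The highest WT and the lowest Npc1-/- sample agree to the digits given and the groups did not overlap. Ctsw, of cytotoxic lymphocytes, overlapped at 0.347 to 1.03 against 0.124 to 0.617, and Ctse and Ctsg stayed below 0.5 in every sample.

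Cystatins, stefins and Ctla2 proteins inhibit the cysteine cathepsins. Of 10 such genes, 5 were tested and none was called. Only Cst3 had an unadjusted p below 0.05 (limma), against 22.2% of all genes tested. Cst3, cystatin C, was far above any protease of the family, with 1060, 888 and 965 scaled TPM in WT and 592, 763 and 785 in Npc1-/- samples. These groups were separate, with a log2 fold change of -0.45 (adjusted p = 0.142, limma). Cstb, cystatin B, had a log2 fold change of 0.28, and Ctla2a and Ctla2b had -0.62 each, all 3 with overlapping groups.

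Genes that tag and sort lysosomal enzymes were mostly above 0 in log2 fold change, in 7 of 10. The median was 0.16 against 0.0081 over all genes, and none was called. An unadjusted p below 0.05 (limma) was seen in 3 (Gnptab, Gnptg and Sort1), against 22.2% of all genes tested. Scarb2, the receptor of glucocerebrosidase, had 0.15, Sort1, the receptor sortilin, 0.67, M6pr, the small mannose 6-phosphate receptor, -0.11, and Gnptg, a subunit of the enzyme that makes the tag, 0.20. Sort1 had 34.3, 32.7 and 40.0 scaled TPM in WT and 50.2, 54.5 and 67.6 in Npc1-/- samples (adjusted p = 0.0584, limma). All Npc1-/- values lay above the WT values in 3 of the 10 genes, Sort1, Gnptg and Gnptab, against 13.3% of all genes tested. Gnptab, the catalytic subunit of the tagging enzyme, had 30.3, 32.8 and 29.5 scaled TPM in WT and 40.5, 37.1 and 41.1 in Npc1-/- samples (log2 fold change 0.35, adjusted p = 0.0781, limma), and was named after its value was seen.

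Among 7 lysosomal peptidases of other families the median was 0.038 and none was called. An unadjusted p below 0.05 (limma) was seen in 1 gene, against 22.2% of all genes tested. That gene was Dpp7, a dipeptidyl peptidase named here after its value was seen, with 4.93, 6.06 and 5.39 scaled TPM in WT and 7.92, 8.92 and 8.23 in Npc1-/- samples (log2 fold change 0.57, adjusted p = 0.0567, limma). Lgmn, the asparaginyl endopeptidase that processes several cathepsins, had -0.021, Tpp1, a tripeptidyl peptidase, 0.087, Cpq -0.25 and Ggh 0.038. Of the 5 partner genes, none was called and 1 (Neu1) had an unadjusted p below 0.05 (limma), against 22.2% of all genes tested. Psap, the precursor of the saposins, had -0.0050, and Grn, progranulin, -0.054. The MiT/TFE factors Tfeb, Tfe3 and Mitf had -0.098, -0.013 and -0.020, none called and none with an unadjusted p below 0.05 (limma), and Tfec stayed below the filter.

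**Figure D5:**
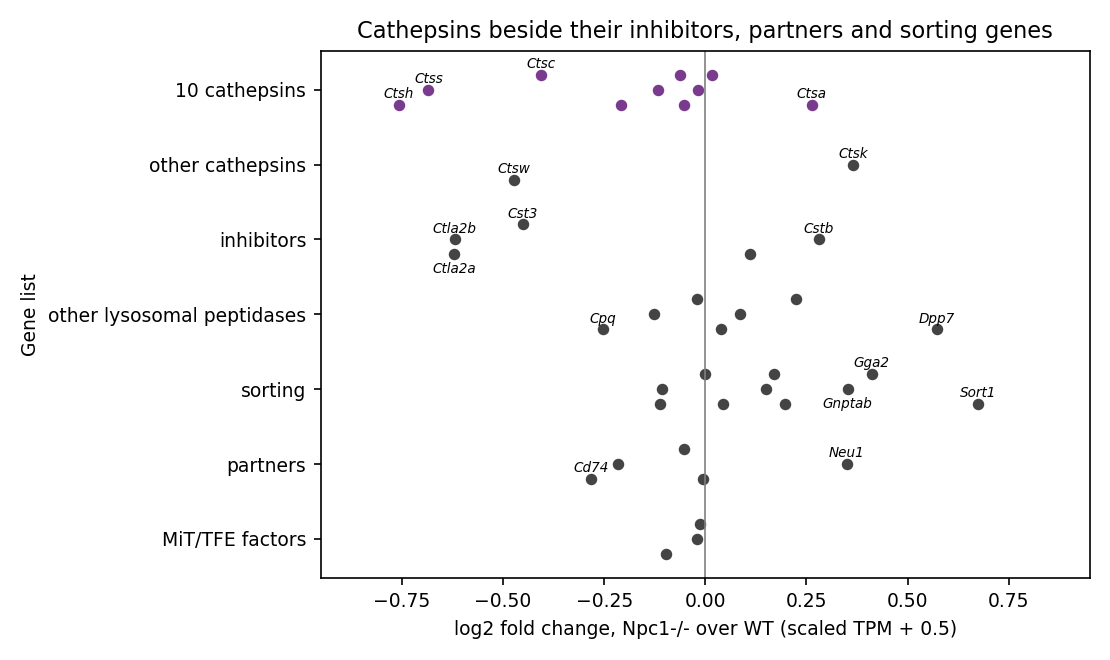
Log2 fold change, Npc1-/- over WT on log2(scaled TPM + 0.5), of every tested gene in 7 lists, 1 point a gene, with the names of genes beyond 0.24; points are staggered vertically to separate them. Ctsh (-0.76) and Sort1 (0.67) mark the ends, the 3 MiT/TFE factors lie within 0.1 of 0, and none of these genes passed the adjusted threshold.

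Across the 6 samples some members ran together. Pearson's r of log2 levels was 0.886 between Ctsb and Ctsd, 0.882 between Ctsd and Ctsz, and 0.879 between Ctsh and Ctss. Between Ctsa and Ctsh it was -0.767. These values describe 6 points that share the split by genotype.

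Patterns were compared over 9147 genes at or above a mean TPM of 5, the members included, and the closest non-members are named. The closest to Ctsh were Crip2, Hspa12b and Esam (r from 0.996 to 0.998), of which Esam is an adhesion molecule of endothelium. The closest to Ctss were Tnfrsf12a, Phf1 and Hsd3b7 (r 0.984 to 0.985), and those to Ctsc were Ap2a2, Elk3 and Tpcn1 (r 0.990 to 0.999). Those to Ctsa were Mrps18a, Tmem62 and Tmsb10 (r 0.987 to 0.988), and to Ctsz Gusb, Ampd2 and Nipa2 (r 0.973 to 0.989). Gusb, beta-glucuronidase, is itself a lysosomal enzyme. Ctsl lay closest to Dhx8, Fam20b and Slc11a2 (r 0.960 to 0.995), Ctsd to Kctd1, Hnrnpf and Zfp710 (r 0.960 to 0.983), and Ctsb to Zbtb17, Zfp672 and Snora81 (r 0.928 to 0.952). Ctsf lay closest to Pth1r, Blvrb and Whamm (r 0.971 to 0.988) and Ctso to Ap1s2, Tspan12 and Med17 (r 0.968 to 0.985). With 6 samples and 9147 genes, values of this size are a description only.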

How the data were processed

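Poly(A) RNA of O4+ cells from 3 WT and 3 Npc1-/- mice was sequenced by the authors as 151-base pairs. The authors deposited TPM and FPKM per gene (GRCm38), and FPKM equals TPM times a constant per sample. The submitters' processing notes name cutadapt 2.3, FastQC 0.11.8, STAR 2.7.8a, RSEM 1.3.3 and MultiQC 1.7, whereas the study's methods name bbduk, STAR, featureCounts and DESeq2. Which counter gave the deposited TPM, and whether it used strand, is not given in the sources used here. Raw counts were not analysed here, so limma took the place of DESeq2.

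TPM was divided by median-of-ratios size factors. Genes whose mean TPM reached 0.5 were fitted on log2(scaled TPM + 0.5) with limma 3.58.1 in R 4.3.3 (lmFit, eBayes with trend), genotype as the only factor, and Benjamini-Hochberg adjustment over all genes tested. The fold change is on that scale and understates the change of low genes. The fit was tested on simulated data. Exact permutation tests ran over 20 arrangements. Python 3.11.15, numpy 2.4.6, pandas 2.3.3 and matplotlib 3.10.9 served for tables and plots.

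Depth was estimated from low FPKM values where the gene has 1 transcript, of 350 to 1000 bases, which fell within 0.15 of a whole number of fragments in 81.6% to 85.1% of cases against 30.0% by chance. Whole fragments were not recovered for genes with several transcripts. Errors are the spread between mice.

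Members, gene lists and tests were chosen with earlier results of these data known. The text names all members, the 4 most abundant and all called genes of each related list, the 3 most abundant of each cell list (1 is not reported here), and the 3 genes nearest in pattern to each member. Positions are from GENCODE M21. Replicate numbers recur in both genotypes, but the labels do not tie them to a litter or day and not every pair of same-numbered samples deviated together, so they were not used as pairs. Alternatives tried were FPKM, unscaled TPM, quantiles made equal between samples, other pseudocounts (0.1 and 1), the filter dropped or raised to 5, limma with robust estimation or without trend, a replicate block, each sample left out, and other denominators for the ratio. Adding Gm49369 to Ctsd was chosen after seeing the data.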

Additional observations from a re-analysis of the deposited data

How the results depend on the processing

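The 124 called genes became 924 with TPM as deposited, 225 with quantile normalization, 21 of 28469 without a filter, 447 with a mean TPM of at least 5, 42 without trend, and 5 to 477 with 1 sample left out (477 without Npc1-/- replicate 3, 5 to 20 otherwise). The cause was not tested. The count of cathepsins called, 0, became 2 with TPM as deposited (Ctsh and Ctss), 1 with a mean TPM of at least 5 and 1 without Npc1-/- replicate 3 (Ctsh in both), so the leave-one-out counts ran from 0 to 1. The count of related genes called, 0, became 2 with TPM as deposited (Cst3 and Ctla2a), 1 with quantile normalization (Cst3), and 2 with a mean TPM of at least 5 (Dpp7 and Sort1).

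Signs turned for Ctsa (-0.108) and Ctsb (-0.356) with TPM as deposited and for Ctsb with quantile normalization (-0.132). With TPM as deposited, Ctsd, Ctsl and Ctsz had -0.39, -0.426 and -0.433, against a median of -0.326 over all genes. With 1 sample left out, log2 fold changes ran from -0.0129 to 0.0471 for Ctsb, -0.0877 to 0.078 for Ctsd, -0.142 to 0.0199 for Ctsl and -0.126 to 0.0421 for Ctsz, each through 0. Ctsh (-1.13 to -0.602), Ctss, Ctsc, Ctso and Ctsf stayed below 0 under all 16 alternatives, and adjusted p-values of Ctsh (limma) ran from 0.0154 to 0.202. The filter, the limma options and the replicate block cannot change a fold change, and FPKM hardly can. Those alternatives bear on the p-values only. The 10 ratios to microglia markers kept their sign under 9 alternatives, with Ctsh between 0.00594 and 0.249. Of these alternatives, FPKM cannot change a ratio within a sample, apart from rounding.

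In the fit with a replicate block, 2011 genes, 1 cathepsin (Ctsh, adjusted p = 0.0411, limma) and 3 related genes (Ctsk, Dpp7 and Sort1) were called. Deviations of samples with the same number correlated at 0.414, 0.0602 and 0.326, and the numbers are not known to mark a shared litter or day, so the block was not used.

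With 3 mice a group, a log2 difference under about the half-width of the intervals given did not reach an unadjusted p below 0.05 (limma). A call rested on the adjusted p and needed a larger difference. Ctsh (-0.757), Ctsa (0.263) and Ctsc (-0.407) exceeded the half-width of their intervals and were not called. The intervals therefore understate the smallest difference that could have been called.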

Other observations

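Genes of activated microglia did not share one direction. Of 11 markers, 9 passed the filter on low values and none was called. An unadjusted p below 0.05 (limma) was seen in 4, against 22.2% of all genes tested. Their log2 fold changes ran from -0.79 to 1.44 with a median of 0.18. Axl, a receptor for apoptotic cells, had 29.6, 22.7 and 26.5 scaled TPM in WT and 13.2, 12.9 and 19.5 in Npc1-/- samples (adjusted p = 0.068, limma). Cd68, a lysosomal membrane protein of macrophages, had a log2 fold change of -0.23 and Spp1, osteopontin, one of 0.18, both with overlapping groups. Gpnmb, a lysosomal glycoprotein named here after its value was seen, had 0.270, 0.208 and 0.289 in WT and 0.762, 1.82 and 2.41 in Npc1-/- samples (log2 fold change 1.44, adjusted p = 0.0639, limma). Unlike the microglia sum, the summed level of the list overlapped between genotypes, at 42.3 to 53.6 scaled TPM in WT and 30.1 to 53.7 in Npc1-/- samples.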
